A study of Drosophila mojavensis with 97 samples.

Results

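Gene expression was compared between adult female Drosophila mojavensis of the Punta Prieta population (PP) held at 15°C and at 25°C, the cold step of the 3 exposure temperatures. The arrays were chosen by their labels, population Punta Prieta and temperature 15 or 25°C, which gave 16 of the 97 arrays of the series, 8 at 15°C and 8 at 25°C. The groups at 15°C were PP AG 15, reared on fermenting agria cactus (AG), and PP OP 15, reared on fermenting organ pipe cactus (OP), and those at 25°C were PP AG 25 and PP OP 25, with 4 arrays in each. All were wild-type flies of a laboratory population founded from wild-caught flies of Baja California. Adults of all groups were kept on banana food and exposed to their temperature for 12 hr, and each array holds RNA of a pool of about 30 whole females, aged 7 or 8 days by different passages of the study. The study also sampled San Quintin (SQ), the other Baja California population, and 2 mainland populations, Punta Onah (PO) and Organ Pipe National Monument (OPNM), as well as an exposure to 35°C. The sources used here do not say that the arrays of a group came from separate cultures. The p-values thus measure the spread between arrays within groups, pooled over all 97 arrays of the series.

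D. mojavensis is a cactus-breeding fly of the Sonoran Desert, and as an ectotherm its body temperature follows that of the air. In Drosophila, cold slows egg production, and the follicle cells that surround each oocyte make the vitelline membrane, the inner layer of the eggshell, while the yolk-filled oocyte grows. Cytochrome P450 enzymes are heme proteins that oxidize hormones, lipids, and plant toxins, Kazal and Kunitz proteins are small inhibitors of serine peptidases, and heat-shock proteins are chaperones that hold or refold damaged proteins. In RNA of whole flies, fewer cells of a type and less RNA per cell cannot be told apart.

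Values are log2 fluorescence of a transcript, so that a difference of 1 is a 2-fold change, and differences are those of 15°C minus 25°C with both cacti weighted equally. A transcript was called where its adjusted p was under 0.01 in a limma fit of all 97 arrays. Array medians lay between 9.91 and 10.10 in the 16 arrays and between 9.81 and 10.10 in the series. The correlation of an array with the mean of the others of its group, across transcripts, was 0.979 to 0.995 at 15°C and 0.947 to 0.995 at 25°C. The lowest of the 16, PP OP 25 replicate 2, also had the smallest interquartile range, 2.69 against a highest of 3.18, so that the main counts of calls and overlaps are also given without it. Names were available for 1255 of the 14528 transcripts, and many were drawn up by the study from these same arrays, so that no list below is independent evidence of its direction.

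At 15°C, 94 transcripts were higher and 103 were lower than at 25°C, 197 of the 14528 tested (1.36%). The higher calls (0.647% of transcripts) had a median difference of 1.0 and ranged from 0.33 to 5.42, while the lower calls (0.709%) had a median of −0.59 and ranged from −3.14 to −0.24. Changes over 4-fold were seen in 28 transcripts that were higher and 3 that were lower at 15°C, and changes over 2-fold in 47 and 15. The median over all transcripts was −0.01. Without PP OP 25 replicate 2, 168 transcripts were called, 93 higher and 75 lower. With only these 16 arrays in the fit, and p adjusted within the comparison, 96 were called, 58 higher and 38 lower. Of the 35 called transcripts named below by rule, 13 were not called in that fit. These were FBtr0161189, FBtr0161610, FBtr0165289, FBtr0167081, FBtr0168490, FBtr0169202, FBtr0172233, FBtr0174830, PGRP-SA, CG1809, CG7135, CG10827, and CG15254.

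**Figure D1:**
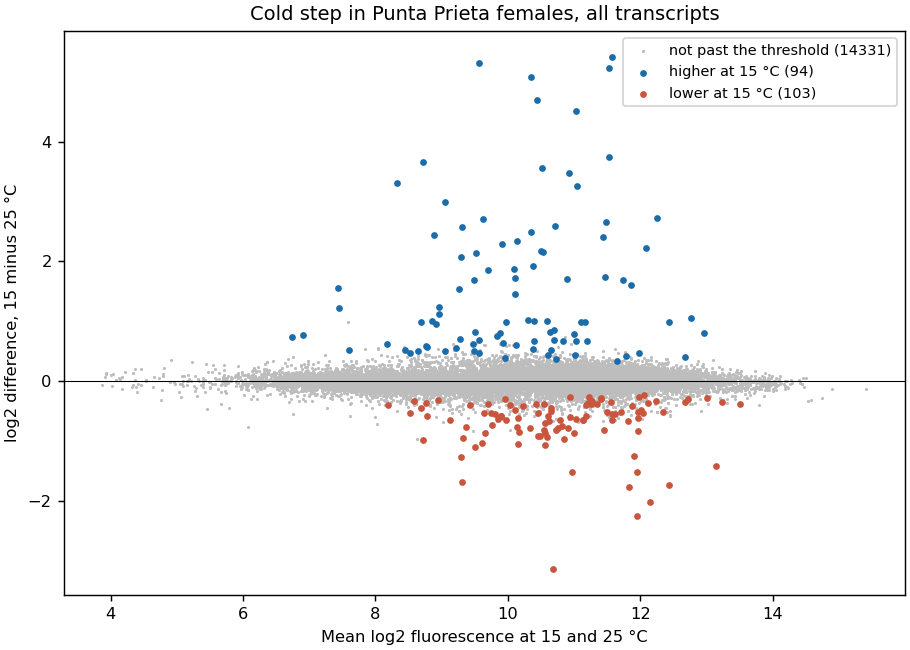
Difference between 15 and 25°C (log2, vertical axis) against the mean log2 fluorescence at 15 and 25°C (horizontal axis) for each of 14528 transcripts in Punta Prieta females. The 94 higher transcripts reach 5.42 and the 103 lower ones reach −3.14, and 28 higher but only 3 lower ones pass 4-fold.

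Every array at 15°C lay above every array at 25°C in 44 transcripts (0.303% of all) and below in 25 (0.172%), 69 without overlap (0.475%). Among the called transcripts the groups did not overlap in 41 of 94 higher and 23 of 103 lower ones. Without PP OP 25 replicate 2, every array at 15°C lay above in 58 transcripts and below in 38, and 51 of 93 higher and 26 of 75 lower calls did not overlap. Leaving out an array can only keep or raise such counts over all transcripts. The arrays at 15°C also varied more in the called transcripts. The SD within groups, pooled over both cacti, was larger at 15°C than at 25°C in 73 of 94 higher and 69 of 103 lower calls, against 37.5% of all transcripts. The median of this SD was 0.43 at 15°C and 0.26 at 25°C in the higher calls, 0.26 and 0.22 in the lower calls, and 0.19 and 0.22 over all transcripts. Without PP OP 25 replicate 2 the median over all transcripts at 25°C was 0.16, below the 0.19 at 15°C. Over all transcripts, too, the arrays at 15°C then varied more by this median. The 37.5% and the SDs of the called transcripts were taken with that array and were not computed without it.

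The transcripts with the greatest rises at 15°C included a heme-binding protein, a secreted lipase, and a Kazal-type peptidase inhibitor. The difference was greatest in FBtr0166499, which has no name. It had 14.52, 14.44, 14.36, and 14.22 in PP AG 15 and 14.64, 13.77, 14.39, and 13.88 in PP OP 15, against 7.97, 8.45, 8.95, and 8.07 in PP AG 25 and 9.33, 9.44, 9.54, and 9.10 in PP OP 25. The groups were far apart, with a difference of 5.42 ± 0.42 (SE, 42.8-fold, adjusted p = 9.82e-18). FBtr0162871, also without a name, had 13.05, 12.23, 12.10, and 11.99 in PP AG 15 and 11.91, 11.69, 12.90, and 11.84 in PP OP 15, against 6.66, 7.04, 6.83, and 6.38 in PP AG 25 and 7.01, 7.20, 7.13, and 6.95 in PP OP 25. Its lowest array at 15°C was more than 4 log2 units above its highest at 25°C, and the difference was 5.31 ± 0.27 (adjusted p = 2.12e-27). At 35°C these transcripts averaged 9.60 ± 1.17 and 7.26 ± 0.46 (SD, n = 9), much closer to the level at 25°C than to that at 15°C.

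FBtr0174470, annotated with heme and iron binding, had 13.60, 12.92, 13.02, and 12.69 in PP AG 15 and 12.60, 12.17, 13.58, and 12.49 in PP OP 15, against 7.55, 7.97, 7.83, and 7.57 in PP AG 25 and 7.84, 8.16, 7.69, and 7.83 in PP OP 25. It was higher on every array at 15°C, by 5.08 ± 0.32 (33.8-fold, adjusted p = 5.31e-22). FBtr0163948, a secreted lipase, the class of enzymes that split fats into fatty acids, had 11.71, 10.46, 10.81, and 9.99 in PP AG 15 and 10.33, 9.72, 11.25, and 10.06 in PP OP 15, against 6.64, 6.93, 6.77, and 6.56 in PP AG 25 and 6.98, 7.37, 6.79, and 7.05 in PP OP 25. The groups did not overlap, and the difference was 3.66 ± 0.23 (12.6-fold, adjusted p = 2.75e-22). In FBtr0163948 and in FBtr0174470 the replicates 1 in PP AG 15 and 3 in PP OP 15 were the highest of their groups. The same held for FBtr0162871 and, below, for FBtr0175110 and FBtr0165289, while in FBtr0166499 replicate 1 was the highest in both groups. These rises were measured on the same arrays, so that they are not independent.

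**Figure D2:**
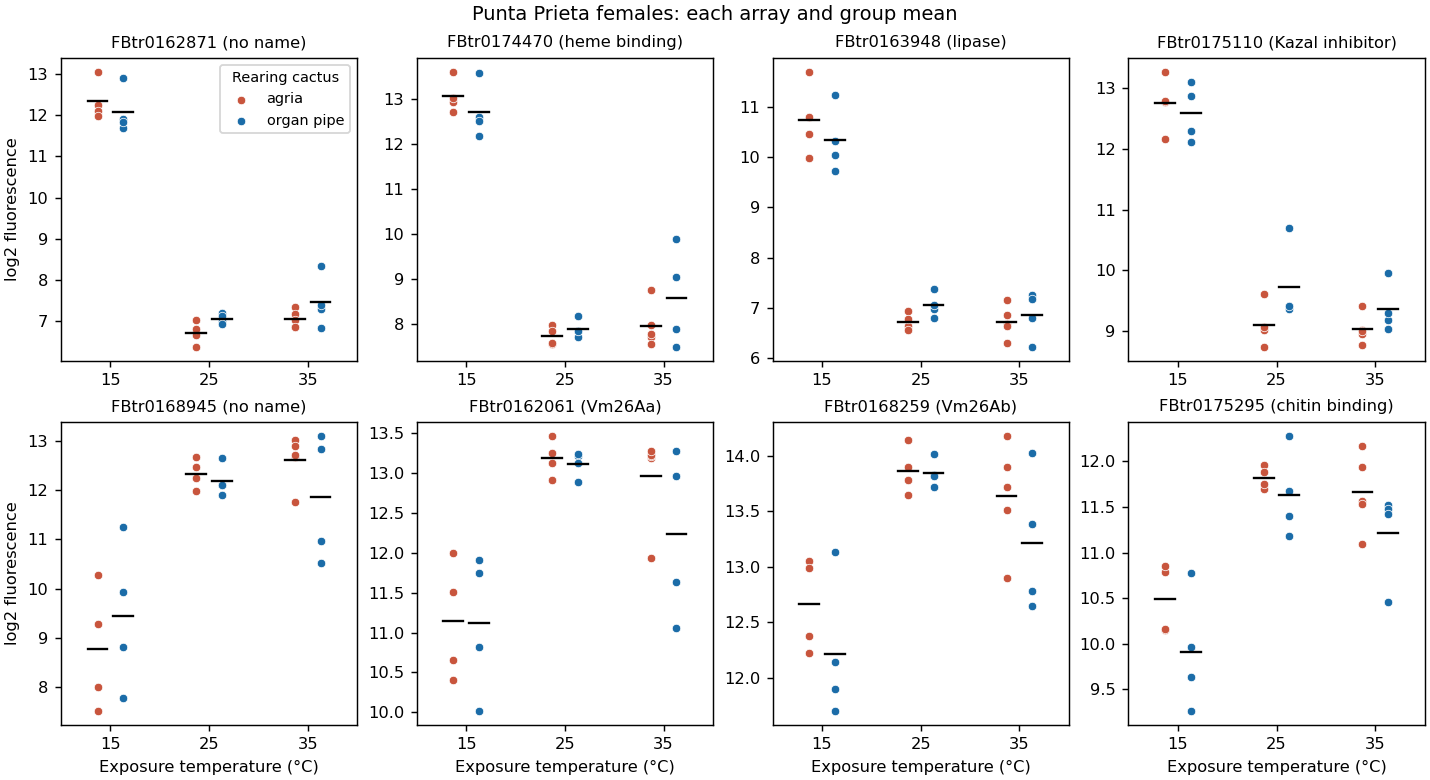
Log2 fluorescence (vertical axis) of 8 transcripts on each array (points) at 15, 25, and 35°C (horizontal axis), with group means as bars, for females reared on agria or organ pipe cactus. The upper 4 transcripts were higher and the lower 4 were lower on every array at 15°C than on any array at 25°C.

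Peptidase inhibitors included 4 transcripts that were higher at 15°C and none that was lower, of 50 on the list, with a median of 0.08. Over all transcripts, 0.647% were called higher and 0.709% lower. FBtr0175110, a Kazal inhibitor, had 13.27, 12.77, 12.80, and 12.17 in PP AG 15 and 12.86, 12.11, 13.10, and 12.29 in PP OP 15, against 8.74, 9.01, 9.61, and 9.06 in PP AG 25 and 9.41, 10.69, 9.37, and 9.42 in PP OP 25. It was higher on every array at 15°C, by 3.26 ± 0.25 (9.57-fold, adjusted p = 1.01e-17), and 10.69 at 25°C was that of PP OP 25 replicate 2, without which the difference was 3.42. A second Kazal inhibitor, FBtr0166996, ranged over 10.27, 10.90, and 11.72 (lowest, median, highest) at 15°C, against 8.82, 9.24, and 9.95 at 25°C, with no overlap and a difference of 1.72 ± 0.24 (adjusted p = 6.89e-08). The Kunitz inhibitors FBtr0168490 and FBtr0161610 rose less, by 0.78 (adjusted p = 0.00252) and 0.73 (adjusted p = 0.00206), and their groups overlapped. At 25°C they averaged 6.51 and 6.37, and both were among the dimmest 25% of transcripts over the series. Without PP AG 15 replicate 1 neither was called (0.67, adjusted p = 0.0136, and 0.63, adjusted p = 0.0118), and FBtr0161610 was not called without PP OP 15 replicate 3 either (0.65, adjusted p = 0.0106). The other 46 inhibitors did not pass the threshold, and 19 of the 50 had a difference below 0.

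None of 77 serine peptidases, the class that Kazal and Kunitz proteins act on, passed the threshold. An unadjusted p under 0.05 was found in 8 of the 77, against 9.45% of all transcripts. Their differences ran from −0.58 to 0.33 with a median of −0.12, 56 of them below 0, and the median was −0.07 without PP OP 25 replicate 2. The smallest p was that of FBtr0171198, at −0.33 (adjusted p = 0.0293). Of 67 metallopeptidases, another class, 1 was higher and 1 was lower, with a median of −0.09, against 1.36% called over all transcripts. FBtr0161189 had a lowest, median, and highest value of 12.59, 12.91, and 13.04 at 15°C, against 12.10, 12.47, and 12.75 at 25°C (0.41 ± 0.09, adjusted p = 0.000929). CG15254 (GI22585, FBtr0173310), an M12A peptidase, had 9.49, 10.56, and 10.99 at 15°C, against 10.66, 11.12, and 11.64 at 25°C (−0.65 ± 0.15, adjusted p = 0.00146). The groups overlapped in both, and CG15254 was not called without PP OP 15 replicate 1 (adjusted p = 0.0105) or without PP OP 25 replicate 2 (adjusted p = 0.0102). A further endopeptidase of unstated class, FBtr0165289, had 11.45, 10.43, 8.83, and 9.87 in PP AG 15 and 11.30, 7.84, 11.82, and 9.27 in PP OP 15, against 7.19, 7.66, 7.57, and 7.73 in PP AG 25 and 7.78, 8.12, 7.44, and 7.78 in PP OP 25. Its difference was 2.44 ± 0.37 (adjusted p = 8.50e-07), while its SD was 1.40 at 15°C and 0.27 at 25°C, and 1 array at 15°C lay within the range at 25°C.

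Of 58 cytochrome P450 and heme-binding transcripts, 2 were higher, 2 were lower, and 54 did not pass, against 1.36% called over all transcripts. The median of the list was −0.05 (−0.02 without PP OP 25 replicate 2). Beside FBtr0174470, the cytochrome P450 FBtr0174075 rose by 0.99 ± 0.19 (adjusted p = 0.000127), with a lowest, median, and highest value of 10.82, 11.66, and 12.17 at 15°C, against 9.89, 10.57, and 11.25 at 25°C. Its values at 35°C averaged 11.25 ± 0.34 (SD, n = 9). The heme-binding FBtr0172649 fell by 0.92 ± 0.15 (adjusted p = 7.66e-06), with 9.26, 10.05, and 10.56 at 15°C, against 10.41, 10.95, and 11.38 at 25°C. FBtr0169963, with the same annotation, was at −0.55 ± 0.14 (adjusted p = 0.00522), a call that was lost without PP AG 15 replicate 1 (adjusted p = 0.0188), PP AG 25 replicate 4 (0.0143), PP OP 15 replicate 1 (0.0132) or 3 (0.0118), and PP OP 25 replicate 1 (0.0104), 2 (0.0112), or 4 (0.0113).

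The ecdysteroid genes code for the P450 enzymes that make the molting hormone 20-hydroxyecdysone, which in adult females comes from the ovary. None of the 4 on the list passed the threshold (median 0.13), and 2 had an unadjusted p under 0.05. The 25-hydroxylase phm (GI11185, FBtr0161910) had a lowest, median, and highest value of 9.65, 10.73, and 11.20 at 15°C, against 10.81, 11.23, and 11.60 at 25°C, a difference of −0.64 ± 0.22 (adjusted p = 0.0552). With array interquartile ranges added as a covariate, phm was called at −0.69 (adjusted p = 0.00506). Differences were 0.15 for dib (FBtr0164613, adjusted p = 0.451) and 0.11 for sad (FBtr0160813, adjusted p = 0.70), the hydroxylases that follow phm in the pathway, and 0.26 for shd (FBtr0162217, adjusted p = 0.195), which makes the active hormone from ecdysone. The direction thus differed between phm and the other 3 enzymes, and no difference passed the threshold.

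Both vitelline membrane genes with a name here fell at 15°C, and transcripts without a name could include others. Vm26Aa (GI11336, FBtr0162061) had 12.00, 10.66, 11.51, and 10.41 in PP AG 15 and 10.02, 11.91, 11.75, and 10.82 in PP OP 15, against 12.91, 13.12, 13.47, and 13.25 in PP AG 25 and 13.21, 13.24, 12.89, and 13.13 in PP OP 25. The groups did not overlap, and Vm26Aa fell by 2.02 ± 0.30 (4.05-fold lower, adjusted p = 7.75e-07). Vm26Ab (GI17534, FBtr0168259) had 13.06, 12.38, 12.99, and 12.23 in PP AG 15 and 11.70, 13.13, 11.90, and 12.14 in PP OP 15, against 13.64, 13.79, 14.14, and 13.90 in PP AG 25 and 14.01, 13.83, 13.72, and 13.82 in PP OP 25. Its groups did not overlap either, and it fell by 1.42 ± 0.21 (2.67-fold lower, adjusted p = 9.18e-07). The arrays at 15°C were spread widely for both genes, with an SD of 0.75 for Vm26Aa and 0.55 for Vm26Ab, against 0.19 and 0.16 at 25°C. At 35°C Vm26Aa averaged 12.60 ± 0.86 and Vm26Ab 13.43 ± 0.56 (SD, n = 9).

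Vm26Aa and Vm26Ab were also the fixed markers of ovarian follicle cells. All 16 markers chosen for whole females, 2 for follicle cells, 4 for muscle, 4 for gut, 2 for fat body, and 4 for neurons, had a transcript on the array. The 14 markers of the other tissues did not pass the threshold, with differences from −0.34 for Lsd-1, a lipid droplet protein of the fat body (FBtr0161092, adjusted p = 0.101), to 0.33 for epsilonTry, a gut trypsin (FBtr0171968, adjusted p = 0.474). Whether the share of follicle cells in the flies moved with these values was not tested.

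The largest fall was that of FBtr0168945, which has no name. It had 10.27, 8.02, 9.29, and 7.52 in PP AG 15 and 7.79, 9.94, 11.25, and 8.81 in PP OP 15, against 11.98, 12.46, 12.66, and 12.24 in PP AG 25 and 12.64, 12.10, 11.90, and 12.09 in PP OP 25. All arrays at 15°C were below all at 25°C although they spanned nearly 4 log2 units, and the difference was −3.14 ± 0.39 (8.84-fold lower, adjusted p = 4.36e-09). FBtr0172526, also without a name, ranged over 10.25, 10.85, and 11.28 (lowest, median, highest) at 15°C, against 12.57, 13.17, and 13.51 at 25°C, with a difference of −2.26 ± 0.27 (adjusted p = 8.60e-10).

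Of 21 chitin and peritrophin transcripts, 1 was higher, 1 was lower, and 19 did not pass, against 1.36% called over all transcripts. The median of the list was 0.04 (0.09 without PP OP 25 replicate 2). FBtr0175295, a secreted chitin-binding protein, had 9.26, 10.16, and 10.86 (lowest, median, highest) at 15°C, against 11.18, 11.72, and 12.28 at 25°C. It fell by 1.53 ± 0.18 (2.88-fold lower, adjusted p = 4.93e-10), and the groups did not overlap. FBtr0174830, with a peritrophin-A domain, a chitin-binding domain known from the lining of the insect gut, rose by 0.62 ± 0.13 (adjusted p = 0.000587), with overlapping groups.

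Among DNA- and zinc-binding proteins, FBtr0169070, a sequence-specific DNA-binding protein, had 8.47, 8.94, and 9.28 at 15°C, against 9.61, 10.06, and 10.44 at 25°C, and fell by 1.10 ± 0.15 without overlap (adjusted p = 1.31e-07). FBtr0170936, a metal-binding transcription regulator, fell by 0.82 ± 0.17 (adjusted p = 0.000487) and FBtr0169202, a zinc-binding membrane protein, fell by 0.77 ± 0.15 (adjusted p = 0.000297), both with overlapping groups. The protein kinase FBtr0161432, in contrast, had 9.06, 9.35, and 9.69 at 15°C, against 8.16, 8.26, and 8.82 at 25°C, and rose by 1.01 ± 0.13 (adjusted p = 8.70e-09) with every array at 15°C above those at 25°C.

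CG7888 (GI11443, FBtr0162168), an amino acid transporter, had 10.49, 11.09, and 11.59 at 15°C, against 9.71, 10.31, and 10.69 at 25°C, and rose by 0.82 ± 0.15 (adjusted p = 3.45e-05). FBtr0161362, an iron- and vitamin-binding oxidoreductase, rose by 1.55 ± 0.20 (adjusted p = 1.43e-08) without overlap, and FBtr0169217, a carbohydrate-binding membrane protein, by 1.02 ± 0.16 (adjusted p = 1.29e-06). CG7135 (GI17509, FBtr0168234) rose by 0.59 ± 0.11 (adjusted p = 9.41e-05). It was the 1 of 10 CHK kinase-like transcripts (median −0.05) that was called, against 1.36% over all transcripts.

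CG10827 (GI22009, FBtr0172734), an alkaline phosphatase, had 8.08, 10.37, and 11.18 at 15°C, against 10.58, 11.13, and 11.54 at 25°C, and fell by 0.94 ± 0.20 (adjusted p = 0.000487). CG1809 (GI19888, FBtr0170613), another alkaline phosphatase, had 8.71, 10.15, and 11.30 at 15°C, against 10.33, 11.05, and 11.49 at 25°C, and fell by 0.88 ± 0.19 (adjusted p = 0.00106). In both, the lowest array at 15°C was far below the range at 25°C and the highest was within it. CG8665 (GI12253, FBtr0162978), the formyltetrahydrofolate dehydrogenase of folate metabolism, fell by 0.85 ± 0.19 (adjusted p = 0.00135) and averaged 9.74 ± 0.56 at 15°C and 10.59 ± 0.29 at 25°C (SD, n = 8 each). Of 32 transcripts of amino acid metabolism and transport, 2 were lower and none was higher, against 0.709% lower and 0.647% higher over all transcripts. The median of the list was 0.02 (0.03 without PP OP 25 replicate 2). Both lower transcripts bind pyridoxal phosphate, the cofactor of aminotransferases. FBtr0172233 was at −0.86 ± 0.21 (adjusted p = 0.00327) and was not called without PP OP 15 replicate 1 (−0.65, adjusted p = 0.0298). FBtr0167081 was at −0.64 ± 0.17 (adjusted p = 0.00923), a call that was lost in 12 of the 16 fits without 1 array, with the highest p without PP OP 15 replicate 1 (−0.56, adjusted p = 0.0333).

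The oxidoreductase FBtr0163840 was at −0.88 ± 0.22 (adjusted p = 0.00424) and lost its call without any of 4 arrays, PP AG 15 replicate 1, PP AG 25 replicate 3, PP OP 15 replicate 3, and PP OP 25 replicate 2 (adjusted p = 0.0204 without the last, −0.75). Of 17 transcripts of peptidoglycan and lysozyme immunity, 1 was lower and none was higher, against 0.709% lower over all transcripts. The median of the list was −0.06 (−0.02 and no call without PP OP 25 replicate 2). The lower transcript was PGRP-SA (GI16473, FBtr0167198), a receptor for bacterial peptidoglycan in the Toll pathway of D. melanogaster. PGRP-SA had 8.98, 9.47, and 10.29 at 15°C, against 9.78, 10.24, and 10.92 at 25°C. Its difference of −0.64 ± 0.17 (adjusted p = 0.00938) was just inside the threshold and was not called in 11 of the 16 fits without 1 array, with the highest p without PP AG 25 replicate 3 (−0.53, adjusted p = 0.0421).

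No transcript of the remaining lists passed the threshold. The 10 transcripts of heat response and chaperones ranged from −0.14 to 0.09, and none had an unadjusted p under 0.05. The small heat-shock protein GI11114 (FBtr0161839), the member with the smallest p, averaged 12.67 ± 0.21 at 15°C and 12.76 ± 0.17 at 25°C (SD, n = 8 each), a difference of −0.09 (adjusted p = 0.591), and 13.24 ± 0.14 at 35°C (n = 9). The clock gene Per (FBtr0167020) averaged 10.97 ± 0.48 at 15°C and 10.87 ± 0.50 at 25°C (SD, n = 8 each), a difference of 0.11 (adjusted p = 0.788) that was −0.03 without PP OP 25 replicate 2. The glutathione transferase GstE7 (GI20124, FBtr0170849), of a family that detoxifies plant compounds, was at 0.51 ± 0.14 (adjusted p = 0.0152), and FBtr0173229, a juvenile hormone and odorant binding protein, at 0.42 ± 0.12 (adjusted p = 0.0169). Both were called without PP OP 25 replicate 2 (0.57, adjusted p = 0.00667, and 0.50, adjusted p = 0.00348). GstE7 was also called without PP AG 15 replicate 4 (adjusted p = 0.00837), PP AG 25 replicate 4 (0.00768), or PP OP 15 replicate 1 (0.00466), and FBtr0173229 without PP AG 15 replicate 1 (0.00538) or PP OP 15 replicate 3 (0.00525).

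Mitochondrial respiration, 61 transcripts, had no call. An unadjusted p under 0.05 was found in 5 of the 61, against 9.45% of all transcripts. Of its differences 57 were below 0, with a median of −0.15, against 51.9% below 0 over all transcripts. The members were measured on the same arrays, so that their signs are not independent. The median was −0.04 on agria and −0.28 on organ pipe, and −0.08 without PP OP 25 replicate 2. For the step in the other populations it was 0.07 in San Quintin, 0.13 in Organ Pipe National Monument, and −0.05 in Punta Onah. The list was drawn from annotation terms and also held Vha14 and disco, so that its name need not hold for every member. The smallest p in Punta Prieta was that of CG7678 (GI24259, FBtr0174984), a subunit of a proton-transporting ATPase, at −0.38 ± 0.13 (adjusted p = 0.0451). CG7678 was called without PP OP 15 replicate 2 (−0.47, adjusted p = 0.00866). In DNA replication and repair, 15 of 16 differences were above 0, against 48.1% over all transcripts. Their median was 0.16 (0.11 without PP OP 25 replicate 2), and none was called (2 with an unadjusted p under 0.05). For the other populations the median of this list was −0.03 in San Quintin, −0.13 in Organ Pipe National Monument, and 0.12 in Punta Onah. The medians lay between −0.14 and 0.07 in juvenile hormone binding (8 transcripts), odorant binding (11), lipid and cuticular hydrocarbon enzymes (7), glycan degradation (16), glutathione transferases (8), CRAL-TRIO carriers (7), glycolysis (21), tRNA charging and ribosome (27), muscle (4), and neurons (14). Without PP OP 25 replicate 2 these medians lay between −0.12 and 0.16, with 0.16 in CRAL-TRIO carriers (0.07 with it), −0.04 in lipid and cuticular hydrocarbon enzymes (−0.14 with it), and −0.06 in muscle (−0.13 with it).

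**Figure D3:**
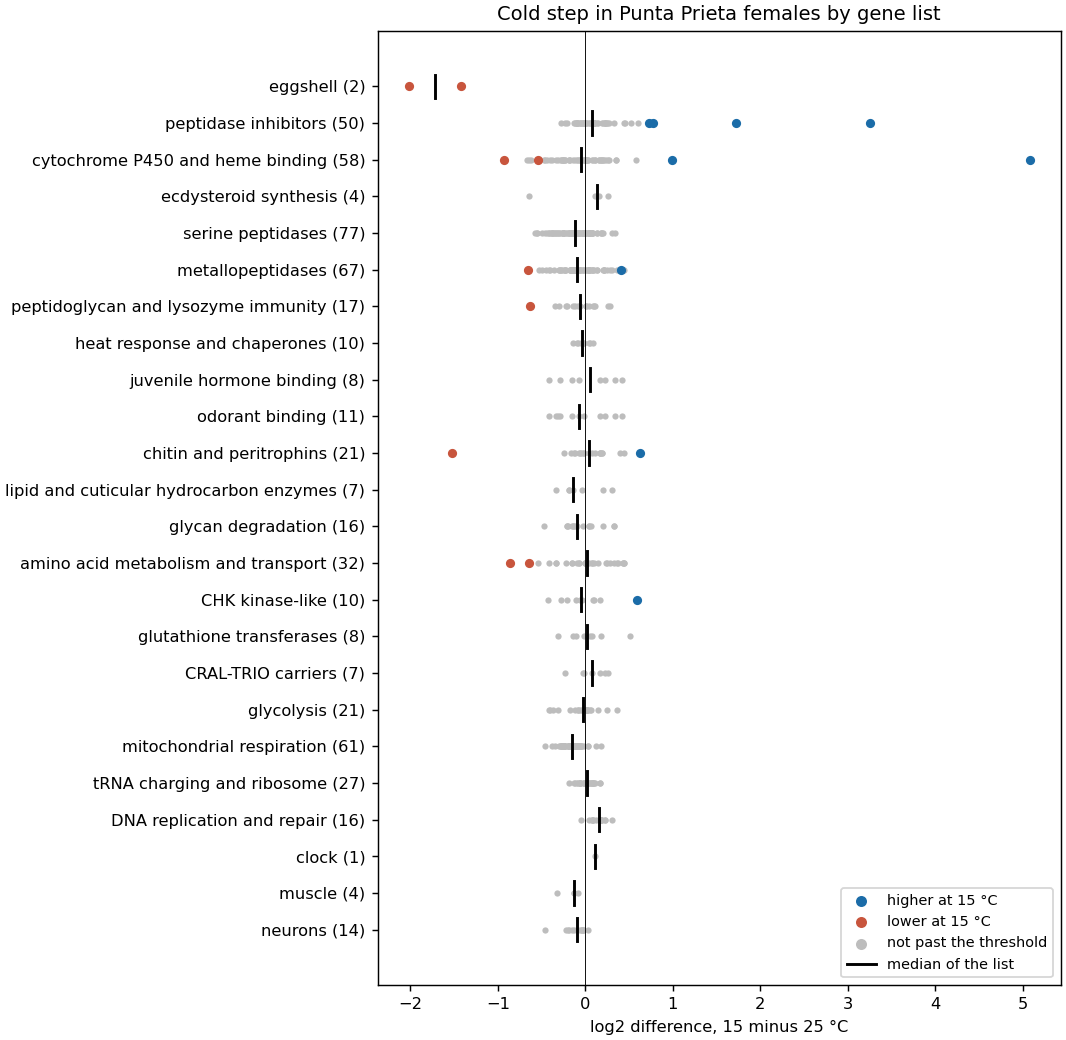
Log2 difference between 15 and 25°C (horizontal axis) of each transcript (points) in 24 gene lists (rows, with the number of transcripts), with the median of the list as a bar. Both vitelline membrane genes of the eggshell list, 4 of 50 peptidase inhibitors, and 4 of 58 P450 and heme-binding transcripts were called. Over all transcripts 1.36% were called. The median of all transcripts is −0.01.

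Differences between the rearing cacti were examined by testing the cold step separately on each. On agria, 95 transcripts were called (0.654%), 65 higher and 30 lower at 15°C, and on organ pipe 102 (0.702%), 52 higher and 50 lower, with 68 in both. All 197 transcripts of the averaged step had the same sign on both cacti, and 93 of them were called on agria and 100 on organ pipe. Without PP OP 25 replicate 2, 101 transcripts were called on agria and 75 on organ pipe, 64 in both, and without PP OP 15 replicate 1 63 were called on organ pipe.

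The difference between the 2 steps, agria minus organ pipe, passed the threshold in no transcript by limma. Of the 14528 transcripts, 149 had an unadjusted p under 0.05, against 1373 for the averaged step. The median SE of this difference was 0.26. The P450 FBtr0174075 had a step of 1.44 on agria and 0.54 on organ pipe, and was called on agria only, but the difference between the steps did not pass (adjusted p = 1.0). The named transcripts with the smallest p were FBtr0168347, a serine peptidase at −0.22 on agria and 0.09 on organ pipe, and FBtr0163694, a metallocarboxypeptidase at 0.34 on agria and −0.68 on organ pipe (both adjusted p = 1.0).

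**Figure D4:**
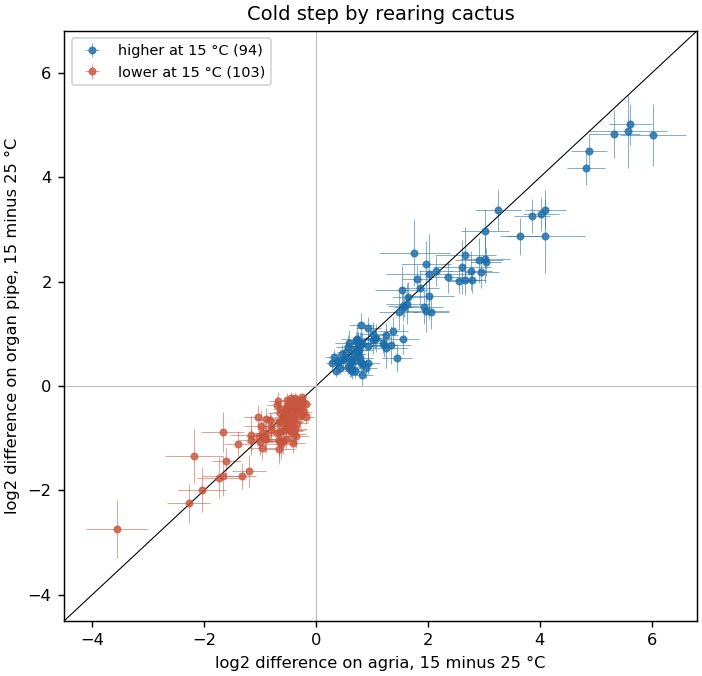
Log2 difference between 15 and 25°C on organ pipe (vertical axis) against that on agria (horizontal axis) for the 197 called transcripts, with standard errors from the fit as bars and the line of equality. All 197 lie in the quadrants of equal sign, which the averaging over cacti favors.

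The cold step was then set beside that of the other populations, which share no arrays with it. The Punta Prieta step minus the mean step of the other 3 populations passed the threshold in no transcript by limma (829 of 14528 with an unadjusted p under 0.05, smallest adjusted p = 0.131), nor did the step minus that of San Quintin (848 of 14528, smallest adjusted p = 0.385). The median SE was 0.15 and 0.18. Both smallest values belonged to FBtr0175364, a transcript without a name that was picked out after its values were seen, with −0.81 against the mean of the others and −0.93 against San Quintin. Among named transcripts the smallest p was that of FBtr0174624, an iron-binding hydrolase of carbon-nitrogen bonds, with a step of −0.34 in Punta Prieta, 0.17 in San Quintin, −0.0026 in Organ Pipe National Monument, and 0.06 in Punta Onah (adjusted p = 0.694 against all others and 0.770 against San Quintin). CG15254 (FBtr0173310) had a step of −0.65 in Punta Prieta, −0.01 in San Quintin, 0.07 in Organ Pipe National Monument, and −0.16 in Punta Onah (adjusted p = 0.694 against all others). The chitin-binding FBtr0175295 was at −1.53 in Punta Prieta and −0.64 in San Quintin (adjusted p = 0.770).

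The step taken within each other population called 304 transcripts in San Quintin (2.09%), 438 in Organ Pipe National Monument (3.01%), and 190 in Punta Onah (1.31%). Of the 94 transcripts higher in Punta Prieta, 81 were also called higher in San Quintin (86.2% of the Punta Prieta calls and 30.3% of those of San Quintin), 74 in Organ Pipe National Monument (78.7% and 18.7%), and 73 in Punta Onah (77.7% and 67.0%). For the 103 lower transcripts the numbers were 22 (21.4% and 59.5%), 25 (24.3% and 58.1%), and 48 (46.6% and 59.3%). Without PP OP 25 replicate 2, the populations in the same order called 83, 75, and 72 of 93 higher transcripts and 21, 24, and 48 of 75 lower ones. All 3 other populations called 60 higher and 16 lower transcripts in the same direction, while 7 higher and 50 lower ones were called in none of them. The median difference of the higher transcripts was 1.0 in Punta Prieta, 1.08 in San Quintin, 0.93 in Organ Pipe National Monument, and 0.87 in Punta Onah, and that of the lower ones was −0.59, −0.27, −0.20, and −0.46 in the same order. The transcripts were picked by their values in Punta Prieta, which favors the larger size there.

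Of the higher transcripts, 94 had a positive difference in San Quintin, 93 in Organ Pipe National Monument, and 94 in Punta Onah, and of the lower transcripts 98, 91, and 103 had a negative one. No transcript was called in opposite directions. The 1 higher transcript of opposite sign, FBtr0163647, has no name and was picked out for that sign. It had a lowest, median, and highest value of 7.86, 9.87, and 12.69 at 15°C, against 7.59, 8.22, and 9.03 at 25°C. Its step was 2.08 ± 0.55 (adjusted p = 0.00841) in Punta Prieta and −1.10 (adjusted p = 0.259) in Organ Pipe National Monument, and its difference from the other populations did not pass (adjusted p = 0.714).

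The steps of a few transcripts are given side by side. FBtr0162871 rose by 5.31 in Punta Prieta, 4.97 in San Quintin, 4.84 in Organ Pipe National Monument, and 5.29 in Punta Onah, and FBtr0174470 by 5.08, 4.65, 4.37, and 4.89 in the same order. FBtr0165289, the endopeptidase with spread-out values at 15°C, was at 2.44, 2.01, 0.57, and 1.78. Vm26Aa (FBtr0162061) was at −2.02 in Punta Prieta, −1.51 in San Quintin, −3.00 in Organ Pipe National Monument, and −2.19 in Punta Onah, and Vm26Ab (FBtr0168259) at −1.42, −1.08, −2.10, and −1.91.

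**Figure D5:**
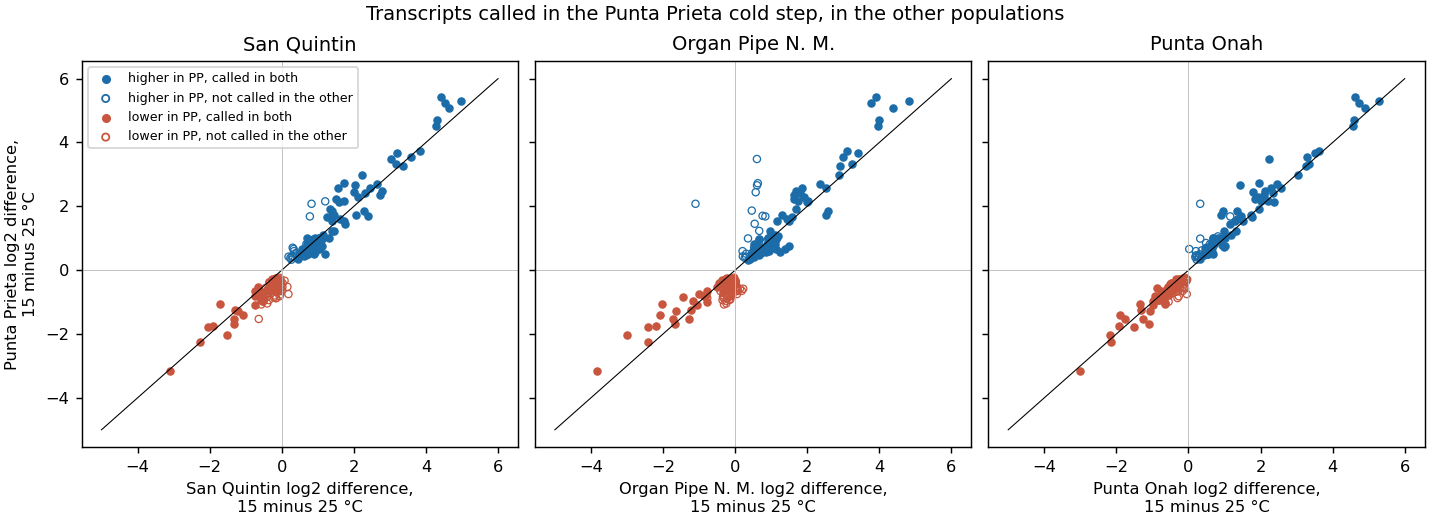
Log2 difference between 15 and 25°C in Punta Prieta (vertical axis) against that in San Quintin, Organ Pipe National Monument, and Punta Onah (horizontal axes) for the 197 transcripts called in Punta Prieta, with the line of equality. Filled points were called in both populations, 81, 74, and 73 of the 94 higher and 22, 25, and 48 of the 103 lower transcripts.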

How the data were processed

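RNA of pools of whole females was converted to cDNA, labeled with Cy3, and hybridized to NimbleGen one-color arrays with about 9 probes per transcript. The deposited values are log2 values: the authors normalized fluorescence across arrays by quantiles in NimbleScan 2.5 and combined the probes of a transcript by RMA. Quantile normalization brings the distributions of the arrays together, so that a change in total RNA per fly is not measured, and the deposited values still differed between arrays in median and interquartile range. Raw intensities and background were not used here, and slides and scans are not given in the sources used here. Precision is limited by the number of arrays.

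From these values, limma 3.58.1 in R 4.3.3 (lmFit and eBayes) fitted 1 mean for each of 24 groups on 97 arrays, with 73 residual degrees of freedom. No filter or further normalization was applied. Benjamini-Hochberg adjustment was over 483 pairwise comparisons and all transcripts together, with a threshold of 0.01, and within the contrast for the 3 tests of a difference between steps. SEs are those of the fit and SDs are over arrays.

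Names and terms came from supplementary tables of the study. None of the 14528 identifiers matched the available RefSeq gene table, and no sequences are shown. The arrays, lists, and rules were chosen with earlier results of these data known. Named were the 12 named transcripts with the largest call each way, the 2 largest each way without a name, up to 4 calls of each list or its smallest p, all eggshell, ecdysteroid, and clock genes, and, for each test of a difference between steps, the 2 smallest p where none passed. On simulated data of 14528 transcripts with 50 changed at each size, the fit recovered 37 at a log2 difference of 0.5, 49 at 1, 50 at 2, and 50 at 4, with 9 false calls. The simulated noise was independent between transcripts and arrays and had the same spread in every group. The real arrays differ in this, so that these numbers need not hold for them. Alternatives were 10 settings of scaling, filter, fit, and adjustment, and leaving out each of the 16 arrays in turn, for the counts of calls, the counts within the gene lists, and the named transcripts.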

Additional observations from a re-analysis of the deposited data

Results flagged for a closer look

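In 17 of 224 groups of 4 arrays examined for the 56 named transcripts, 1 array lay far from the others by Dixon's criterion, in 14 transcripts. Chance alone gives about 1 in 20 groups. PP OP 25 replicate 2 was the far array in 5 groups. It was high for the inhibitors FBtr0175110 (10.69, the others from 9.37 to 9.42) and FBtr0166996 (9.95, the others from 9.22 to 9.34) and the serine peptidase FBtr0171198 (8.55, the others from 8.39 to 8.42). It was low for the carbohydrate-binding FBtr0169217 (8.71, the others from 9.79 to 9.85) and the pyridoxal phosphate-binding FBtr0172233 (10.53, the others from 11.34 to 11.48).

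PP AG 25 replicate 1 was low for the metallopeptidase FBtr0161189 (12.16, the others from 12.65 to 12.75), CG15254 (FBtr0173310, 10.996, the others from 11.24 to 11.28), and CG1809 (FBtr0170613, 10.82, the others from 11.39 to 11.49). PP AG 25 replicate 4 was high for CG7888 (FBtr0162168, 10.69, the others from 10.40 to 10.44), sad (FBtr0160813, 10.26, the others from 9.90 to 9.95), and the transcription regulator FBtr0170936 (11.58, the others from 11.22 to 11.24). PP OP 25 replicate 3 was low for the heme-binding FBtr0169963 (9.67, the others from 10.02 to 10.06) and the DNA-binding FBtr0169070 (9.61, the others from 10.03 to 10.08).

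Single groups stood out in 4 further arrays. CG7888 (FBtr0162168) was high in PP OP 15 replicate 3 (11.51, the others from 10.49 to 10.58), and CG1809 (FBtr0170613) was low in PP OP 15 replicate 1 (8.71, the others from 9.84 to 9.95). sad (FBtr0160813) was high in PP AG 15 replicate 4 (10.37, the others from 10.05 to 10.08), and Per (FBtr0167020) was low in PP AG 25 replicate 3 (10.92, the others from 11.23 to 11.26).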

How the results depend on the processing

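The 197 calls of the averaged step became 96 with only the 16 Punta Prieta arrays fitted (60.4% higher, against 47.7%), and 128 with a change of at least 1.5 times required. Calls on agria, 95 of them, became 44 with 16 arrays. Those on organ pipe, 102, became 36 with 16 arrays, 59 adjusted within the comparison, and 63 without PP OP 15 replicate 1. Leaving out 1 array gave 167 (without PP AG 25 replicate 3) to 228 (without PP OP 15 replicate 2) calls for the averaged step, 38.2 to 59.7% of them higher, 80 to 101 on agria, 63 to 147 on organ pipe, and 0 to 0 for each of the 3 tests of a difference between steps. Of the 35 called transcripts named by rule, 20 kept their call under every alternative run, 13 lost it with 16 arrays, and 8 lost it without at least 1 array. FBtr0163647, picked out for its sign, is not among them. The called FBtr0161362, FBtr0161610, FBtr0163948, FBtr0168490, and FBtr0174830 were among the dimmest 25% of transcripts. The setting that left these out could not be run for them. Among the 56 named transcripts, 1 turned its direction. This was Per (FBtr0167020), at 0.109 with all arrays, at −0.027 without PP OP 25 replicate 2, and up to 0.191 without any other single array. Calls within 12 of the 24 gene lists moved by over 1.5 times under at least 1 alternative. They ranged from 2 to 6 among peptidase inhibitors, 3 to 7 among P450 and heme-binding transcripts, 0 to 4 among metallopeptidases and in amino acid metabolism and transport, 1 to 2 among chitin-binding transcripts, and 0 to 1 in the other 7. The cause of these changes was not tested. The fit of 16 arrays also adjusted p within the comparison, so that adjustment and number of arrays changed together. With that adjustment alone and all arrays fitted, 155 transcripts were called for the averaged step, 73 on agria, and 59 on organ pipe.

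No source says that replicate numbers pair the arrays, and they were not taken to. Deviations of arrays with the same number correlated between −0.38 and 0.39 (median 0.13, 5 of 8 pairs over 0.1), against a median of −0.03 and 8 of 24 pairs over 0.1 for different numbers, and 3 of 8 arrays at 15°C correlated best with their own number. With the replicate block, 185 transcripts were called, 94 on agria, 98 on organ pipe, and 0 in the 3 tests of a difference. Of the called transcripts named by rule, FBtr0167081 was then not called (adjusted p = 0.0108).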

Other observations

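Of 3 transcripts annotated as alkaline phosphatases, a group picked out after the values were seen, CG10827 (FBtr0172734) and CG1809 (FBtr0170613) fell at 15°C, by 0.94 and 0.88. CG10592 (GI13179, FBtr0163904) averaged 12.32 at 15°C and 12.50 at 25°C, a difference of −0.19 (adjusted p = 0.703). For CG10827 the step was −0.66 on agria and −1.22 on organ pipe, and it was −0.36 in San Quintin, −0.35 in Organ Pipe National Monument, and −0.82 in Punta Onah.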
